A study of Homo sapiens with 8 samples.

Results

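The enzymes that hydroxylate proline and lysine in collagen, together with the collagen galactosyltransferases and the cofactor CRTAP, form a list of 10 genes. A gene entered through array rows annotated with its symbol alone, and among several such rows the brightest on average represented the gene. Of the 10 genes, 9 had such a row, against 33458 genes so annotated in the whole table. COLGALT2 was not analysed here. P4HA2 alone of the 9 had a further row.

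LN229 is an established human glioblastoma line. The cells were held for 18 h on Transwell membranes, either under 23 Pa of compressive solid stress (CSS), produced by steel discs on an agar cushion, or without load, and RNA was hybridised to expression arrays, with 4 samples in each group. The unloaded wells lacked the cushion as well as the discs, so that discs and cushion cannot be told apart. Both groups were otherwise the same line in the same serum-containing medium, and 1 line stands for the tumour here. Titles and source names disagree in all 8 samples: each sample titled as a control has a source name giving 23 Pa CSS, and the reverse. Groups here follow the titles, differences are the samples titled 23 Pa CSS minus those titled no CSS, and if the source names are correct all signs are inverted.

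Collagen chains are modified in the endoplasmic reticulum before they fold. Prolyl 4-hydroxylase, a tetramer of catalytic alpha subunits (P4HA1, P4HA2 or P4HA3) and the beta subunit P4HB, makes the 4-hydroxyproline that keeps the triple helix stable at body temperature. The lysyl hydroxylases PLOD1, PLOD2 and PLOD3 make hydroxylysine, which COLGALT1 and COLGALT2 can galactosylate and which takes part in cross-links between fibrils. The hydroxylases need oxygen, iron, 2-oxoglutarate and ascorbate, and several of their genes are known targets of the hypoxia-inducible factors in other cells.

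Array medians lay between 4.56 and 4.65 on the log2 scale, the correlation between any pair of arrays was 0.961 to 0.985, and the highest signal in the table was 19.93. Probes for antigenomic background averaged 4.03 without load by title and 4.18 with it. The hybridisation controls, which are added to every array, moved with the groups: the mean of their array medians was 10.16 and 10.53 in the same order, a shift of 0.37. The poly-A controls, averaged per array, moved with the groups, at 6.92 to 7.58 without load by title and 7.74 to 8.03 with it. The part of these shifts in the differences was not tested beyond the values rescaled by the hybridisation controls, given with the differences. Of 8 markers of glioma cells, VIM, NES, CD44 and S100B were between 12.20 and 16.91 in both group means. GFAP (4.30 and 4.58) and OLIG2 (4.77 and 5.04) lay close to the background. EGFR differed by 0.84 and SOX9 by 0.17. The groups were apart for VIM, NES, CD44 and GFAP and overlapped for EGFR, SOX9, OLIG2 and S100B. The 8 markers summed to 17.03 to 17.29 without load by title and 17.31 to 17.54 with it, so their sum was apart too. Of the immune markers, PTPRC was 4.83 and 5.59 and CD3E 4.75 and 4.60, and all 4 endothelial markers had means under 5. The summed signal of the 6 immune markers was 11.19 to 11.46 and 12.21 to 13.26, most of it from CD68 (11.25 and 12.73), a lysosomal protein that is made outside the immune system too. The 5 epithelial markers summed to 11.12 to 12.03 and 12.13 to 12.73, also apart. EPCAM, CDH1 and KRT5 had means under 5, and KRT18 was at 11.30 and 12.21 with groups apart. KRT8 went the other way, with a difference of −0.21 and overlapping groups. The 6 markers of fibroblasts and pericytes summed to 11.62 to 11.97 and 11.39 to 11.76, with LUM at 10.96 and 10.84, and PDGFRA at 10.01 and 9.49 with groups apart. The part of these marker lists in the differences was not tested. In a bulk sample, fewer cells that make a transcript and less of it per cell cannot be told apart.

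Both widely used alpha subunits of prolyl 4-hydroxylase rose in the samples titled 23 Pa CSS, and so did the lysyl hydroxylase PLOD1 and the galactosyltransferase COLGALT1. The beta subunit P4HB, the lysyl hydroxylases PLOD2 and PLOD3, the cofactor CRTAP and the alpha subunit P4HA3 did not pass the test. Thus 4 of the 9 genes were higher and 0 lower at an adjusted p under 0.05 (limma, adjusted over all 135750 transcript clusters), where 1.36% of all genes were higher and 0.962% lower. Over the transcript clusters, most of which have no single symbol, these shares were 0.581% and 1.43%. Among the 3218 genes with a mean signal above that of PLOD3, the dimmest of the 8 genes other than P4HA3, 4.6% were higher. The median difference over the 9 genes was 0.39, beside 0.09 over all genes. The groups were apart, with every sample titled 23 Pa CSS above every other, in 5 of the 9, against 9.11% of all genes (13.7% in either direction). The genes were chosen with earlier results of these data known, so these counts are no independent result.

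**Figure D1:**
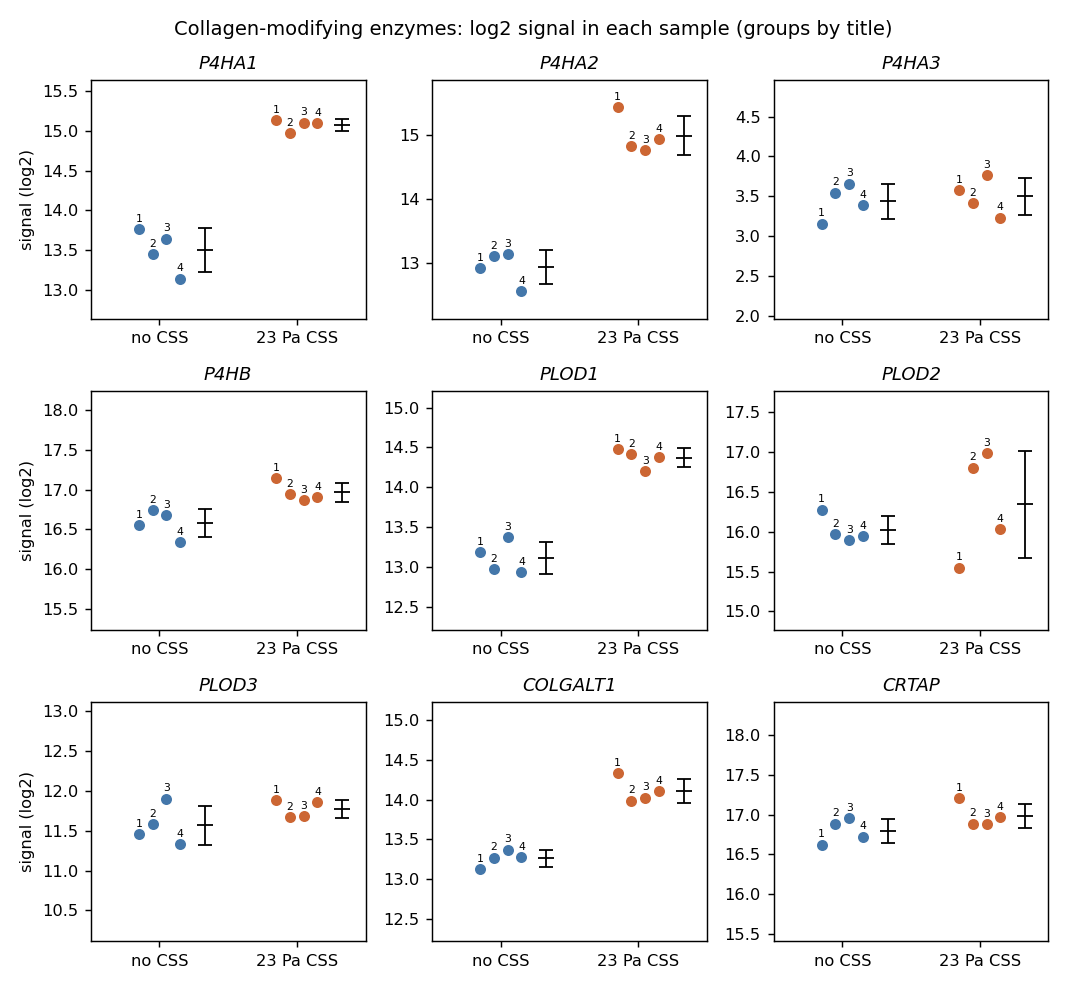
Log2 array signal of the 9 measured genes in each sample (points, numbered by replicate), in the samples titled no CSS (blue) and 23 Pa CSS (orange), with mean and SD (n = 4) to the right of the points. All panels have their own axis; P4HA1, P4HA2, P4HB, PLOD1 and COLGALT1 show groups that are apart, and PLOD2 shows 4 widely scattered values under the title 23 Pa CSS.

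P4HA2 (transcript cluster TC0500013354.hg.1), a catalytic alpha subunit, had the largest difference of the 9. Its log2 signal was 12.92, 13.11, 13.14 and 12.56 in no CSS replicates 1 to 4 and 15.43, 14.82, 14.76 and 14.93 in 23 Pa CSS replicates 1 to 4. The lowest value of the second group thus exceeded the highest of the first by more than either group's own range. P4HA2 rose 4.14-fold, from 12.93 ± 0.267 to 14.98 ± 0.305 (SD, n = 4), a difference of 2.05 with a 95% interval of 1.60 to 2.50 (limma adjusted p = 0.00352). The second row annotated with P4HA2 alone, TC0500013355.hg.1, read 4.69 ± 0.342 and 4.97 ± 0.281, near the background, and did not pass (difference 0.27, adjusted p = 0.6). Averaging both rows gave a difference of 1.16, still past the threshold (adjusted p = 0.0189).

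P4HA1 (TC1000011005.hg.1), the alpha subunit of the most widespread form of the enzyme, gave 13.77, 13.45, 13.64 and 13.14 in the samples titled no CSS. Under the title 23 Pa CSS its values were 15.14, 14.97, 15.10 and 15.09, which lie within 0.17 of each other. Of all genes, 97% had an SD at least as large as that of P4HA1 in this group. P4HA1 rose 2.97-fold, from 13.50 ± 0.273 to 15.07 ± 0.0744 (SD, n = 4), a difference of 1.57 with a 95% interval of 1.19 to 1.96 (limma adjusted p = 0.00488).

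P4HB (TC1700012073.hg.1), the beta subunit, is also the protein disulfide isomerase of the endoplasmic reticulum and serves many clients besides collagen. Its values were 16.55, 16.74, 16.68 and 16.34 without load by title and 17.14, 16.94, 16.87 and 16.91 with it. The groups did not overlap, although their nearest samples lay close together. The difference of 0.39 (95% interval 0.03 to 0.75) had an unadjusted p of 0.0366 in the limma fit and an adjusted p of 0.27. P4HA3 (TC1100011609.hg.1), an alpha subunit with a narrow tissue range, read 3.44 ± 0.218 and 3.50 ± 0.230 (SD, n = 4), below the antigenomic mean in both groups, so its difference of 0.06 is no measurement of a change.

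PLOD1 (TC0100006874.hg.1), the lysyl hydroxylase that acts on the helical part of collagen, read 13.19, 12.98, 13.37 and 12.94 in the samples titled no CSS. The samples titled 23 Pa CSS gave 14.48, 14.42, 14.20 and 14.38, all above the first group. It rose 2.38-fold, from 13.12 ± 0.201 to 14.37 ± 0.120 (SD, n = 4), by 1.25 with a 95% interval of 0.89 to 1.62 (limma adjusted p = 0.00999).

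PLOD2 (TC0300012718.hg.1) encodes the lysyl hydroxylase of the collagen telopeptides, where cross-links form. In the samples titled no CSS it varied little, at 16.28, 15.97, 15.89 and 15.95. In those titled 23 Pa CSS it read 15.55, 16.81, 16.99 and 16.03. Replicates 2 and 3 were above all unloaded samples by title, replicate 1 was below all of them and replicate 4 lay among them. The SD was 0.175 in the first group and 0.672 in the second, an SD reached by 3.12% of all genes there, whereas the median SD over genes was 0.243 and 0.268. The difference of 0.32 had a 95% interval of −0.32 to 0.96 (limma adjusted p = 0.658), which includes a rise as large as that of COLGALT1. Leaving out single samples moved it between 0.11 (without 23 Pa CSS replicate 3) and 0.59 (without 23 Pa CSS replicate 1), with no adjusted p below 0.324.

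PLOD3 (TC0700012041.hg.1), which also carries glycosyltransferase activity towards collagen, was 11.46, 11.58, 11.91 and 11.33 without load by title and 11.89, 11.67, 11.69 and 11.86 with it. No CSS replicate 3 was the highest of the 8 samples, so the groups overlapped. Its difference of 0.21 had a 95% interval of −0.17 to 0.59 (limma adjusted p = 0.63).

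COLGALT1 (TC1900007331.hg.1) transfers galactose to hydroxylysine. Its signal was 13.12, 13.27, 13.37 and 13.28 in the samples titled no CSS and 14.33, 13.99, 14.02 and 14.11 in those titled 23 Pa CSS, again with every sample of the second group higher. It rose 1.80-fold, from 13.26 ± 0.103 to 14.11 ± 0.153 (SD, n = 4), by 0.85 with a 95% interval of 0.50 to 1.20 (limma adjusted p = 0.0255). This was the weakest call of the 4: blocking on the replicate number ended it (adjusted p = 0.0789), as did centring the arrays by their hybridisation controls (0.48, adjusted p = 0.142) and the removal of any 1 of 6 samples. Only 23 Pa CSS replicates 2 and 3 could be left out without its loss.

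CRTAP (TC0300006993.hg.1) is the noncatalytic partner of prolyl 3-hydroxylase 1 (P3H1) and cyclophilin B (PPIB) in the complex that modifies single prolines. It read 16.62, 16.89, 16.95 and 16.72 and then 17.21, 16.89, 16.88 and 16.97, with overlapping groups. Its difference of 0.19 had a 95% interval of −0.17 to 0.55 (limma adjusted p = 0.64). Of its partners, P3H1 differed by 0.39 (adjusted p = 0.397) and PPIB, named after its values were seen, by 0.02 (adjusted p = 0.976).

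**Figure D2:**
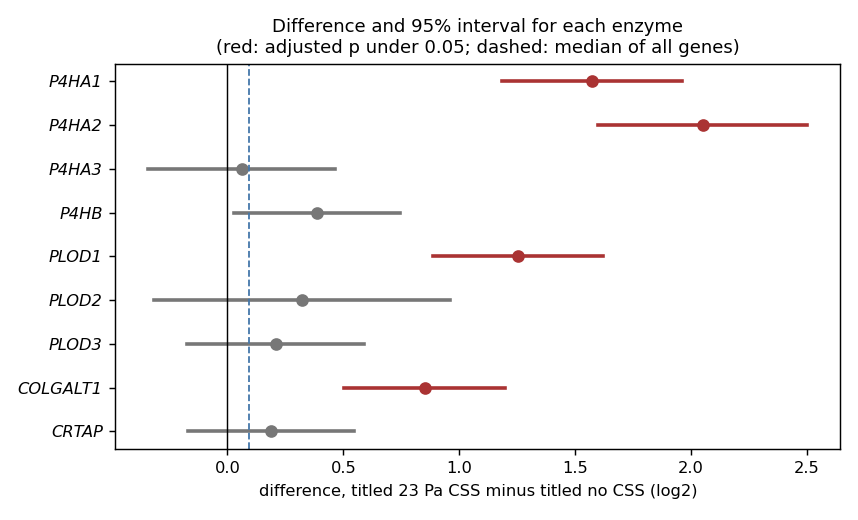
Difference in log2 signal, titled 23 Pa CSS minus titled no CSS, of each of the 9 genes (points) with its 95% interval from the limma fit (lines). The 4 genes in red passed an adjusted p of 0.05; the dashed line at 0.09 is the median of all genes, and the interval of PLOD2 is the widest.

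All 9 differences were above 0, as were 62.5% of those of all genes, and this depended on the scaling. After centring by the hybridisation controls the median of all genes became −0.28. P4HA3, PLOD2, PLOD3 and CRTAP turned to negative differences there, none of them past the threshold. The difference of P4HB fell from 0.39 to 0.01 there (limma adjusted p = 0.968). P4HA3, at background, also turned to −0.03 without no CSS replicate 1 or 23 Pa CSS replicate 3. P4HA1 (1.20), P4HA2 (1.68) and PLOD1 (0.88) kept their calls there, with adjusted p of 0.00464, 0.00246 and 0.0162, and also in the other settings tried, among them the 8 that leave out 1 sample. The plot of differences under each setting shows these 3 genes as filled marks throughout.

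**Figure D3:**
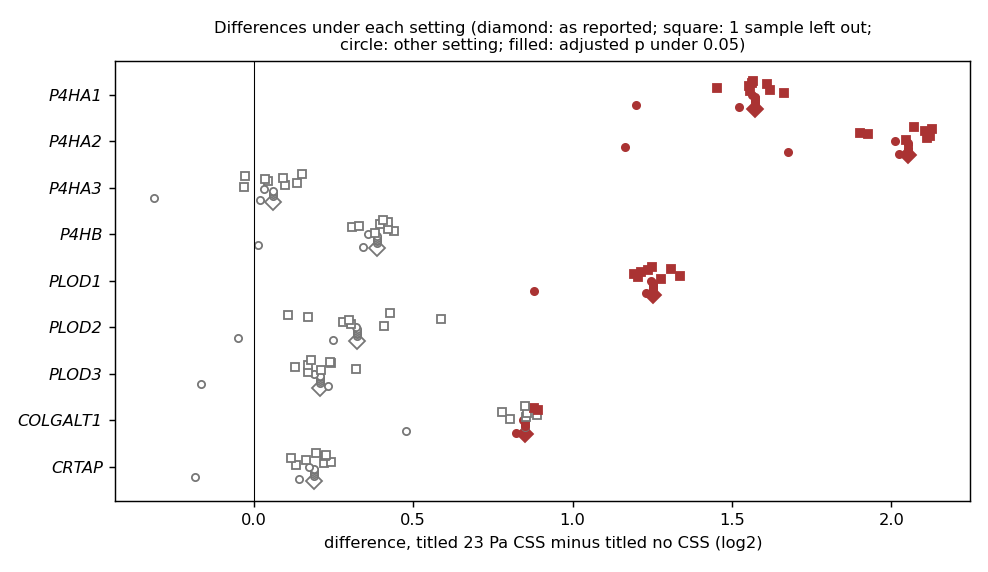
Differences of the 9 genes on the log2 scale under each setting: diamonds are the values as reported, squares leave out 1 sample, circles are the other settings, and filled marks have an adjusted p under 0.05. All marks of P4HA1, P4HA2 and PLOD1 are filled; the marks of COLGALT1 are mixed and those of the other 5 genes are open.

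Differences between genes within an array do not depend on how arrays are centred, and 9 pairs within a role were examined by exact permutation of the samples (two-sided, 70 assignments, smallest possible p 0.0286). At this smallest p a pair passes an adjusted p of 0.05 only if at least 6 of the 9 pairs reach it, and 5 did, 2 of them against P4HA3 at background, so that the adjusted p of 0.0514 is set by the design. The within-array difference P4HA2 minus P4HB was larger by 1.66 in the samples titled 23 Pa CSS, and P4HA1 minus P4HB by 1.19, each with groups apart (exact p = 0.0286, adjusted p = 0.0514). PLOD1 minus PLOD3 was larger by 1.05, again with groups apart (exact p = 0.0286, adjusted p = 0.0514).

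P4HA1 minus P4HA2 gave −0.48, with overlapping groups (exact p = 0.0571, adjusted p = 0.0735). This value turned to 0.41 when the 2 rows of P4HA2 were averaged. PLOD1 minus PLOD2 gave 0.93 (exact p = 0.0571, adjusted p = 0.0735), with an SD of 0.77 in the samples titled 23 Pa CSS. PLOD2 minus PLOD3 gave 0.12 (exact p = 0.83, adjusted p = 0.83). P4HA3 relative to P4HB gave −0.33 (adjusted p = 0.0964), and P4HA1 and P4HA2 relative to P4HA3 gave 1.51 and 1.99, but P4HA3 lay at background. Under quantile normalization 6 of the 9 pairs, namely P4HA1 and P4HA2 each against P4HA3 and P4HB, P4HA1 against P4HA2, and PLOD1 against PLOD3, reached the smallest p and so had an adjusted exact permutation p of 0.0429.

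**Figure D4:**
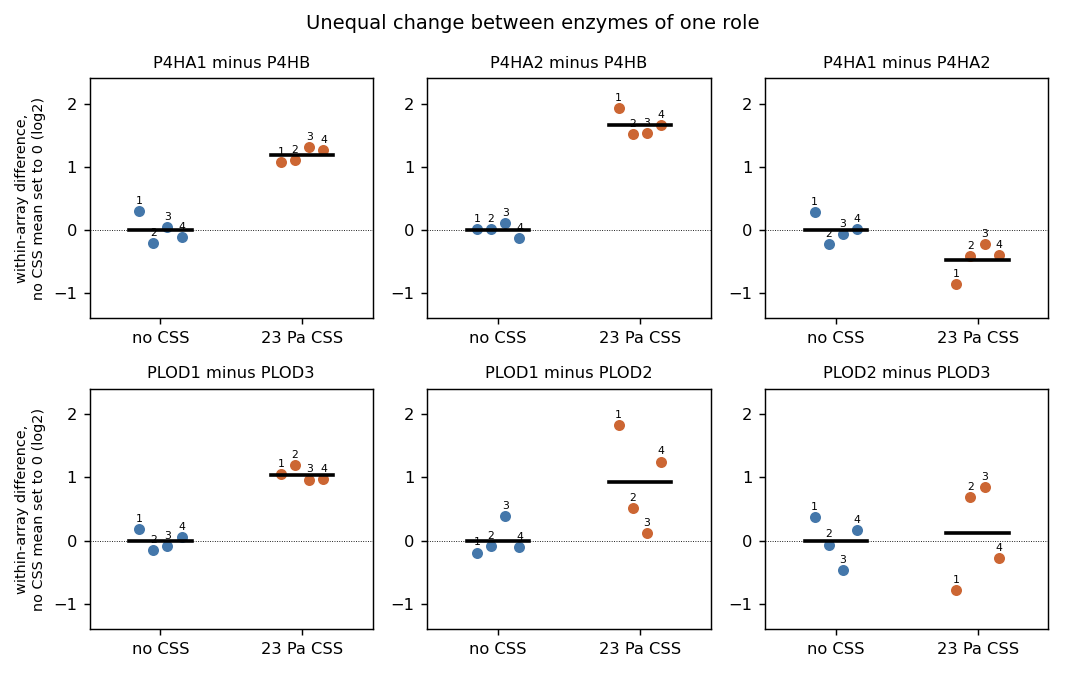
Within-array difference of log2 signal between 2 genes in each sample (points, numbered by replicate), centred on the no CSS mean at 0 and bars at the group means (n = 4). The groups are apart for P4HA1 and P4HA2 against P4HB and for PLOD1 against PLOD3, and they overlap in the 3 other panels.

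Promoter sequence was available for 8 of the 9 genes in RefSeq (GRCh38.p14), as windows from 250 bases before to 50 bases after the annotated start of the gene. They were searched on both strands for ACGTG and GCGTG, the core letters of the element that hypoxia-inducible factors bind. Among all 35116 windows of this length 21.4% hold ACGTG, 36.5% GCGTG and 48.5% at least 1 of them. None of the matches below lies in the longer palindrome CACGTG. The windows of the 4 genes that rose are printed with that of PLOD2, which did not pass, 5′ to 3′ on the gene's strand, with matches in capitals (CACGT and CACGC are the same letters on the opposite strand).
P4HA1: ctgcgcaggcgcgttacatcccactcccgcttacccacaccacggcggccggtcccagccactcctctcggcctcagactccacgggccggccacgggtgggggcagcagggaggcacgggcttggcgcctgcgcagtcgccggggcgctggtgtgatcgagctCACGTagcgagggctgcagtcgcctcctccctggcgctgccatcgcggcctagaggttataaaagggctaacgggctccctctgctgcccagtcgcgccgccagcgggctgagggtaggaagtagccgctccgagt
P4HA2: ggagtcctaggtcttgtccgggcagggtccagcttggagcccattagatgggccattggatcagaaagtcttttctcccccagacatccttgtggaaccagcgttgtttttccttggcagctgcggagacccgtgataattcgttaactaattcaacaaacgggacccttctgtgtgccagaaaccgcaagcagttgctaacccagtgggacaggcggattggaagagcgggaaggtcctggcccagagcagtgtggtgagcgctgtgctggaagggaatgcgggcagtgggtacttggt
PLOD1: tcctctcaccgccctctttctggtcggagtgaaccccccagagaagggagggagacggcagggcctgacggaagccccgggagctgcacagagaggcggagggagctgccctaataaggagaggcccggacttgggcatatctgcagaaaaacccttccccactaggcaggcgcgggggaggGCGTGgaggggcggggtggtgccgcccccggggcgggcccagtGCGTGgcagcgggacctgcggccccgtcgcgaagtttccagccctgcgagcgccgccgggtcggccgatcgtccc
COLGALT1: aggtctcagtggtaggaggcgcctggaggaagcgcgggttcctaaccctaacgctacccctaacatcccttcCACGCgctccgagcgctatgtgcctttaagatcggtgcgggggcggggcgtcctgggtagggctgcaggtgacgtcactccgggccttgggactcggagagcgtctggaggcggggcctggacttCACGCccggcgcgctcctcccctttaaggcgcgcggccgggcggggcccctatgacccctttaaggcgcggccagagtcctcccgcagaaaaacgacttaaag
PLOD2: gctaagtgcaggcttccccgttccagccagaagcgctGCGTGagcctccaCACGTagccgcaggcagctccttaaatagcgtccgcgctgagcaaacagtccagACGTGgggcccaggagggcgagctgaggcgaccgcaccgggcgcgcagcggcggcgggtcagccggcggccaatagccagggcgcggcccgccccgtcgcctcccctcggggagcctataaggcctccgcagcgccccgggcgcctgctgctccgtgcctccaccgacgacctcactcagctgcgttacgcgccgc

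The window of P4HA1, chr10:73096817-73097116 (minus strand), holds 1 ACGTG, at position −86 from the start. That of P4HA2, chr5:132227042-132227341 (minus strand), holds neither motif. PLOD1, chr1:11934467-11934766 (plus strand), has 2 GCGTG matches, at −68 and −25, and COLGALT1, chr19:17555399-17555698 (plus strand), has 2 as well, at −178 and −53. PLOD2, chr3:146161135-146161434 (minus strand), holds ACGTG at −200 and −146 and GCGTG at −213. P4HB and CRTAP have 1 GCGTG each and PLOD3 has none, so that 6 of the 8 windows hold at least 1 motif, beside 48.5% of all windows. G and C made up 55.7% (P4HA2) to 73.7% (P4HB) of the letters in the 8 windows. The part of this content in the count was not tested. A match is a run of letters and was not tested for binding.

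Over 7 lists of chaperones, export factors, cross-linking enzymes, collagen chains, oxygen-sensing hydroxylases, disulfide enzymes and cofactor supply, 65 of 69 genes were measured, of which 3 rose, 0 fell and 62 did not pass, where 1.36% of all genes were higher, 0.962% lower, and 4.6% higher among the brighter genes described above. Their median difference was 0.18, beside 0.09 over all genes. An unadjusted p under 0.05 was found for 18 of the 65, against 19.3% of all genes. In the disulfide list 2 of 8 measured genes rose and 0 fell (median 0.25), against the same 1.36% and 0.962% of all genes. ERO1A, which reoxidises protein disulfide isomerase, was 14.71, 14.71, 14.63 and 14.71 by title without load and 15.92, 15.92, 16.09 and 15.78 with it. The groups were apart by more than either spread, and ERO1A rose by 1.24 (limma adjusted p = 0.00714). QSOX1, a secreted and Golgi enzyme that forms disulfides, rose by 1.39, from 11.98 ± 0.323 to 13.37 ± 0.220 (SD, n = 4, adjusted p = 0.0129). ERP44, which retains client proteins in the early secretory pathway, differed by 0.63 and the isomerase PDIA6 by 0.27 (adjusted p = 0.0728 and 0.44).

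Among the substrates, 1 of 20 measured collagen chains rose and 0 fell (median 0.21). Over all genes 1.36% were higher and 0.962% lower (median 0.09). COL5A1, a chain of fibril-nucleating type V collagen, was 6.34, 6.40, 6.55 and 6.15 and then 7.59, 7.20, 7.10 and 7.79, with groups apart. It rose by 1.06 (limma adjusted p = 0.0248), a call that ended when the replicate number was blocked and when any 1 of 5 samples was removed. Each value of COL5A1, and of COL4A5 below, lay under the 95th percentile of the negative control rows on the same array (7.17 to 7.84 across arrays). The type VI chains COL6A1 and COL6A2 differed by 1.01 and 0.61, and the basement membrane chain COL4A5 by −1.01, with adjusted p of 0.0616, 0.104 and 0.066. The groups were apart in 5 of the 20 chains, namely COL5A1, these 3 and COL8A1 (0.47, adjusted p = 0.244; named after its values were seen), against 13.7% of all genes.

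**Figure D5:**
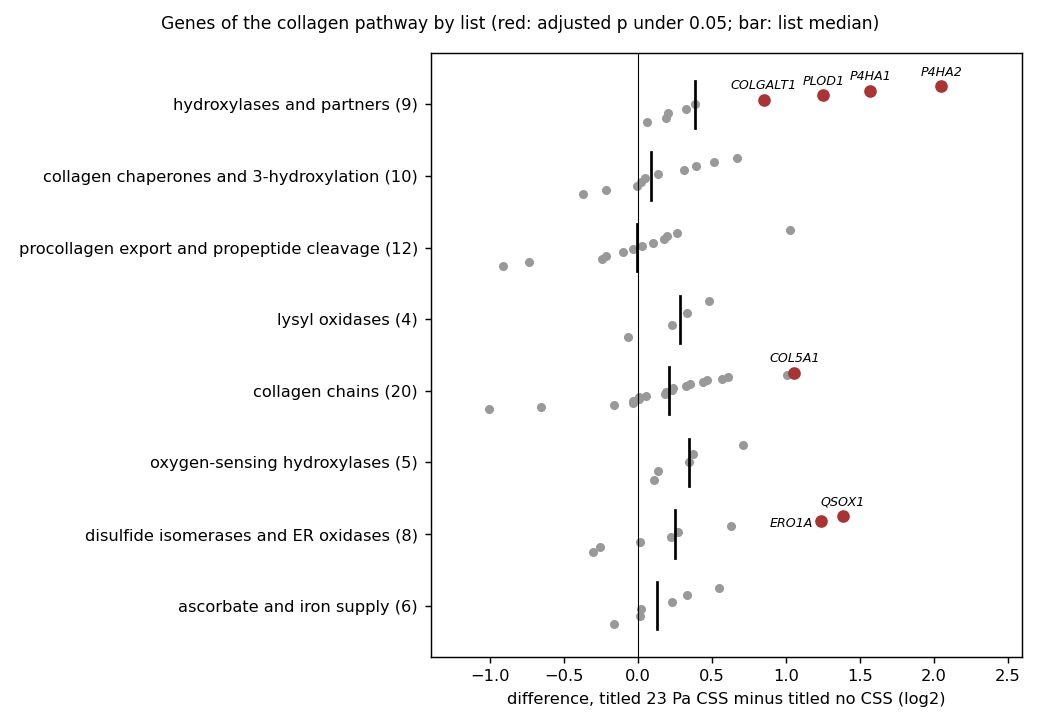
Differences in log2 signal, titled 23 Pa CSS minus titled no CSS, of the 9 genes (top row) and of the measured genes of 7 pathway lists, with the number measured in brackets, list medians as bars and genes past an adjusted p of 0.05 in red. The top row holds 4 red points, and COL5A1, ERO1A and QSOX1 are the 3 others.

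Of the 10 chaperones and 3-hydroxylation genes 0 passed limma's threshold and 2 had an unadjusted p under 0.05, against 19.3% of all genes. The largest difference was that of P3H4, known from mice as a partner of the PLOD1 protein, at 0.67 (adjusted p = 0.116). P3H3, of the same complex in mice, differed by 0.51 (adjusted p = 0.262), and the peptidyl-prolyl isomerase FKBP14 by −0.37 (adjusted p = 0.393). Of 12 export and propeptide genes 0 passed and 3 had an unadjusted p under 0.05, against the same 19.3% of all genes. The 3 were the procollagen protease BMP1 (1.03, adjusted p = 0.0703), the export receptor MIA3 (−0.91, adjusted p = 0.233) and the propeptidase ADAMTS3 (−0.74, adjusted p = 0.242). The coat protein SEC24D differed by 0.27 (adjusted p = 0.557). Under the title 23 Pa CSS, MIA3 read 8.76, 10.40, 10.36 and 9.42 in replicates 1 to 4, so that replicates 2 and 3 were the high ones and replicate 1 the lowest, as for PLOD2.

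The lysyl oxidases, which cross-link the lysines and hydroxylysines of finished fibrils, gave 0 calls among 4 measured genes and 1 unadjusted p under 0.05. Over all genes the share with such an unadjusted p was 19.3%, which also stands beside the counts below. LOX differed by 0.48 (limma adjusted p = 0.303), LOXL4 by 0.33 (0.463 adjusted), LOXL3 by 0.23 (0.664 adjusted) and LOXL1 by −0.07 (0.944 adjusted), and only LOXL3 (11.19 and 11.43) had means above 5. The 5 oxygen-sensing hydroxylases, which use the same cofactors to modify hypoxia-inducible factor or other substrates, also gave 0 calls and 1 unadjusted p under 0.05. They were led by P4HTM (0.71, adjusted p = 0.144) and EGLN1 (0.37, adjusted p = 0.331), while EGLN2 and HIF1AN differed by 0.35 and 0.14 (adjusted p = 0.516 and 0.799). In the list of ascorbate and iron supply, 0 of 6 passed and 1 had an unadjusted p under 0.05, the transferrin receptor TFRC (0.55, adjusted p = 0.119). The ascorbate transporters SLC23A1 and SLC23A2 and the iron transporter SLC11A2 differed by 0.33, 0.23 and −0.16 (adjusted p = 0.509, 0.622 and 0.777). Of these, SLC23A1 lay close to the background, with means of 4.10 and 4.43.

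The genes most like the 3 with the largest differences were found by the root mean square distance between log2 profiles over the 8 samples, each centred on its own mean. Nearest to P4HA2 were GBE1, a glycogen branching enzyme (distance 0.14), the glycolytic kinase PGK1 (0.19), the mannose phosphate isomerase MPI (0.19), the membrane-remodelling ATPase EHD2 (0.20) and the transcription repressor BHLHE40 (0.22). GBE1 rose by 2.00 and read 9.78, 9.83, 9.91 and 9.36 and then 11.92, 11.45, 11.72 and 11.79, with its low value in the same unloaded sample by title as P4HA2. That array, no CSS replicate 4, also had the lowest hybridisation control median (9.94) and antigenomic mean (3.85) of the 8. Its median over the transcript clusters, 4.62, was not the lowest. Nearest to P4HA1 were MPI (0.15), the pseudogene SLC6A10P (0.16), the RNA demethylase ALKBH5 (0.16), PLEKHA2 (0.17) and TOM1 (0.17). PLOD1 had the closest match of the 3, the ubiquitin ligase RNF24 at 0.04, followed by DBNDD1 (0.10) and the amino acid transporter SLC1A4, NIBAN1 and SH3BGRL3 at 0.12, 0.12 and 0.13. Their differences were 1.07 to 2.09, and that they were called higher was fixed by choosing them for likeness over the same 8 samples. For PLOD2, added after its values were seen, the nearest gene was the scaffold protein IQGAP1 (0.16), which read 13.76, 14.47, 14.67 and 13.80 in 23 Pa CSS replicates 1 to 4 and did not pass (0.30, adjusted p = 0.586).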

How the data were processed

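RNA of 8 samples of LN229 cells was measured on arrays. The deposited table gives log2 signal, 1 value per transcript cluster and sample, which per the submitters' processing notes the authors made with Transcriptome Analysis Console. Its version and settings, how arrays were normalized and which genome build applied are not given in the sources used here, so a shift common to an array may remain in the values. The array type stated for the series is a Human Transcriptome Array, whereas the identifiers and annotation of the table belong to another array of the same maker. Transcript clusters were named through the platform annotation that came with the table. The table has 138745 rows. The 2995 rows of controls were left out and the other 135750, the transcript clusters, all tested whatever their signal. A single symbol named 36176 clusters, 1119 had several symbols and 98455 had none. Symbols were updated through a RefSeq gene table (25516 by Entrez identifier, 9899 by symbol, 623 by synonym, 138 unmatched), which gave 33458 genes, each represented by its brightest row.

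The test was limma's moderated one (limma 3.58.1 under R 4.3.3, with lmFit and eBayes, two-sided, with 6 degrees of freedom from the residuals and 5.28 from the prior), with Benjamini-Hochberg adjustment over all transcript clusters and a threshold of 0.05. The procedure was tested on simulated data. The R package data.table, version 1.17.8, read the files, and figures were drawn by matplotlib 3.10.9 in Python 3.11.15. Array signal gives no counts, and the number of arrays limits the precision. Nothing says that the 4 samples of a group came from separate cultures, and a p-value here reflects only how much these samples vary, which may be technical.

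The genes and lists were chosen with earlier results of these data known. Named were the genes under study, of each list those past the threshold, filled up to 4 genes by the smallest p, and the 5 nearest profiles of the 3 genes with the largest difference. Where the text goes beyond this rule it says so. The pairs were adjusted over 9, not 10, since COLGALT2 was not analysed here. Alternatives were quantile normalization, centring on the median of hybridisation controls, a filter at the median signal, a replicate block, the mean of a gene's rows, an intensity trend or a robust prior in eBayes, array weights, and each sample left out.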

Additional observations from a re-analysis of the deposited data

Results flagged for a closer look

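Of 74 groups of 4 samples examined, for the genes of the collagen enzymes and the named pathway genes, 3 held a sample set apart from the other 3 by Dixon's criterion, which flags about 1 in 20 groups by chance. None of them belongs to a hydroxylase, galactosyltransferase or CRTAP. SEC24D was 13.08 in 23 Pa CSS replicate 1 and 12.41 to 12.51 in the others of that title. ERO1A was 14.63 in no CSS replicate 3 and 14.71 in the other 3, a gap far smaller than its difference between the groups. SLC11A2 was 9.79 in no CSS replicate 4 and 10.26 to 10.34 in the others.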

How the results depend on the processing

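The number of collagen enzymes that rose was 4, and 3 or 4 under all 16 alternatives, with 0 that fell. COLGALT1 was the only one of the 9 to change its call, in 8 of 16, with differences of 0.48 to 0.89 and adjusted p up to 0.142. Deviations from the group means correlated at −0.03, −0.02, −0.08 and −0.05 between samples with the same replicate number in their titles. They were taken over all transcript clusters, whose array medians of 4.56 to 4.65 lie near the background. Such values cannot settle whether the numbers pair the samples. No sample titled no CSS correlated best with its own number. With the replicate block 3 rose, COLGALT1 had an adjusted p of 0.0789, and all calls over the table went from 789 higher and 1938 lower to 302 and 1027. Quantile normalization gave 1126 and 1448, and centring on hybridisation controls 336 and 11889. Leaving out single samples gave 145 (no CSS replicate 4) to 1283 (23 Pa CSS replicate 3) higher and 266 to 4077 lower, for the same 2 samples.

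The number of collagen chains that changed was 1, and 2 with quantile normalization, centring on hybridisation controls or an intensity trend, 3 above the median signal, 0 with the replicate block, and 0 to 2 without single samples (0 without no CSS replicate 1, 2 or 4 and without 23 Pa CSS replicate 1 or 4, and 2 without 23 Pa CSS replicate 3). For export and propeptide genes it was 0, and 1 with quantile normalization or above the median signal, 2 with centring on hybridisation controls, and 0 to 1 without single samples (1 without no CSS replicate 3). For ascorbate and iron supply it was 0, and 1 with the intensity trend. The cause of these changes was not tested. Of the pair comparisons, 13 of 90 alternatives passed an adjusted p of 0.05 where the reported value did not. They were 6 pairs under quantile normalization and 7 without 23 Pa CSS replicate 3 (adjusted p = 0.0367). These values follow only from how many pairs reached the smallest possible p, pairs with P4HA3 at background among them, and say nothing about stability. Signals near the background, as for P4HA3, LOX, LOXL1, LOXL4 and SLC23A1, limit what a difference can show.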
